A study of Mus musculus with 9 samples.

Results

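The 10 genes described here encode subunits of the Polycomb repressive complexes: Ezh1, Ezh2, Suz12, Eed and Jarid2 of Polycomb repressive complex 2 (PRC2), and Rnf2, Ring1, Bmi1, Pcgf6 and Cbx7 of Polycomb repressive complex 1 (PRC1). They were taken as every non-control probe that carried one of these names on the array, which gave 15 probes of 55681 on the array and 10 genes of 35019 gene names. RNA came from cultured mouse embryonic stem cells, which can renew themselves and form all tissues of the embryo, in 3 groups that differ in the state of Xpc. Xpc is a sensor of DNA damage in nucleotide excision repair, and it is known to work with Oct3/4 and Sox2 as a coactivator of transcription. The groups were a subclone of Xpc-null cells (labelled KO, called null below), cells with a floxed Xpc gene (flanked by loxP sites, so that Cre can cut it out) treated with the agent labelled Tx and taken 4 days after the deletion (induced), and floxed cells without Tx, in which Xpc was not deleted (floxed). Each group had 3 arrays, and this small number limits the precision. The null cells were labelled as subcloned, so their differences cannot be told apart from those of a clone, and no group received Tx without losing Xpc. Whether the arrays of a group came from separate cultures is not given in the sources used here, so p-values may measure technical spread alone. A gene passed the test where its p from the limma fit, adjusted over all genes by Benjamini-Hochberg, was under 0.05. Of the 10 genes, 0 passed in null against floxed cells (where 1.84% of all genes passed), 0 in induced against floxed cells (0.00502% of all genes) and 0 in null against induced cells (2.21% of all genes). At an unadjusted p under 0.05 the count was 1 in each comparison: Jarid2, with log2 changes of 0.30 in null and 0.24 in induced against floxed cells, and Bmi1, with -0.32 in null against induced cells. Each 95% interval of a member's change lay within 2-fold.

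Polycomb complexes keep developmental genes silent through marks on chromatin. PRC2 methylates lysine 27 of histone H3 through Ezh1 or Ezh2, which work only together with Eed and Suz12, and Jarid2 is an accessory subunit that helps the complex to find its sites. PRC1 attaches ubiquitin to histone H2A through Rnf2 or Ring1, and its Pcgf subunit (Bmi1 or Pcgf6 here) and Cbx subunit (Cbx7 here) set which form of PRC1 is built. Embryonic stem cells are known to use both complexes to hold lineage genes in a silent but inducible state. CpG-rich gene starts are the usual sites of Polycomb binding in these cells.

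The starts of the members were themselves rich in CpG. In RefSeq's promoter table (GRCm38.p6) all 10 genes had an entry, with 11 starts in all, and the 250 bases before each start held between 12 and 37 CpG dinucleotides, against a median of 6 over 32851 starts. The sequences of Jarid2 and Bmi1, the 2 members whose levels differed most among the groups relative to their spread, are shown with each CpG in capitals. The Jarid2 window lies on the plus strand at chr13:44730524-44730773 and the Bmi1 window on the plus strand at chr2:18676768-18677017.
Jarid2: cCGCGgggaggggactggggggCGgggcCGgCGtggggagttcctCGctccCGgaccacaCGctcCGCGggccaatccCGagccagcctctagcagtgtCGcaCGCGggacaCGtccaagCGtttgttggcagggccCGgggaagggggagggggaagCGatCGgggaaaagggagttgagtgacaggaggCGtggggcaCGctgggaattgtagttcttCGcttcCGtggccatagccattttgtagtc
Bmi1: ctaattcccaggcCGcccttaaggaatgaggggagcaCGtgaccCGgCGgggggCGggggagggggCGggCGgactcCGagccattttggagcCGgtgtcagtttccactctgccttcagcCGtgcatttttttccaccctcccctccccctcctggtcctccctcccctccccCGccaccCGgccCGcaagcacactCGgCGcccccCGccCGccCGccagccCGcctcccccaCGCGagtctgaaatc
The Jarid2 window held 23 CpG, a number that 13.3% of all starts reached, and the Bmi1 window held 21, which 16.3% reached. Jarid2 had 2 starts: the window shown is that of the first, and that of the second held 22 CpG. The Suz12 window was the densest of the members with 37, and that of Eed the least dense with 12. The octamer ATGCAAAT, searched on both strands because it is the known binding letters of Oct factors, occurred in 0 of the 11 member windows and in 1.6% of all starts.

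The labels were checked on 2 kinds of genes. Xpc was at log2 levels of -0.85, -1.53 and -1.36 on the null arrays and -1.09, -0.67 and -1.05 on the induced arrays, against 0.59, 0.56 and 0.17 on the floxed arrays. Xpc passed in null against floxed cells (log2 change -1.68, limma adjusted p = 0.00608). In induced against floxed cells Xpc did not pass (-1.38, limma adjusted p = 0.224). Its signal lay well above background on every array, those of the null cells included. All levels are log2 of the background-subtracted probe signal minus log2 of the 75th percentile of the same array. All 9 of the listed stem cell markers, Pou5f1, Sox2 and Nanog among them, lay well above background on every array of each group. Their levels were not alike: in null against floxed cells 7 were lower and 2 higher, where 52.1% of all genes were higher, and 0 passed. In null against induced cells 1 passed, Utf1, higher by 0.59 (limma adjusted p = 0.0318), where 0.668% of all genes rose. Between 47.4% and 57.9% of the spots of an array lay well above background, and 0 were saturated. The arrays sat on 3 slides: slide 3 held null arrays 1 and 2 with all induced arrays, slide 2 held null array 3 with floxed array 3, and slide 1 held floxed arrays 1 and 2. Induced and floxed cells shared no slide, so slide and treatment cannot be told apart there. Floxed array 3 stood apart from the other floxed arrays: it was lower than their mean for 8 of the 10 members, with a median difference of -0.13, against a median of 0.03 over all genes.

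All 10 members were expressed above background on all 9 arrays by the probe used for them, the brightest of each gene. Of the 15 member probes, 13 lay above background on every array, and 1, the fourth probe of Ezh1, failed the filter, which asked for signal well above background throughout at least 1 group.

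**Figure D1:**
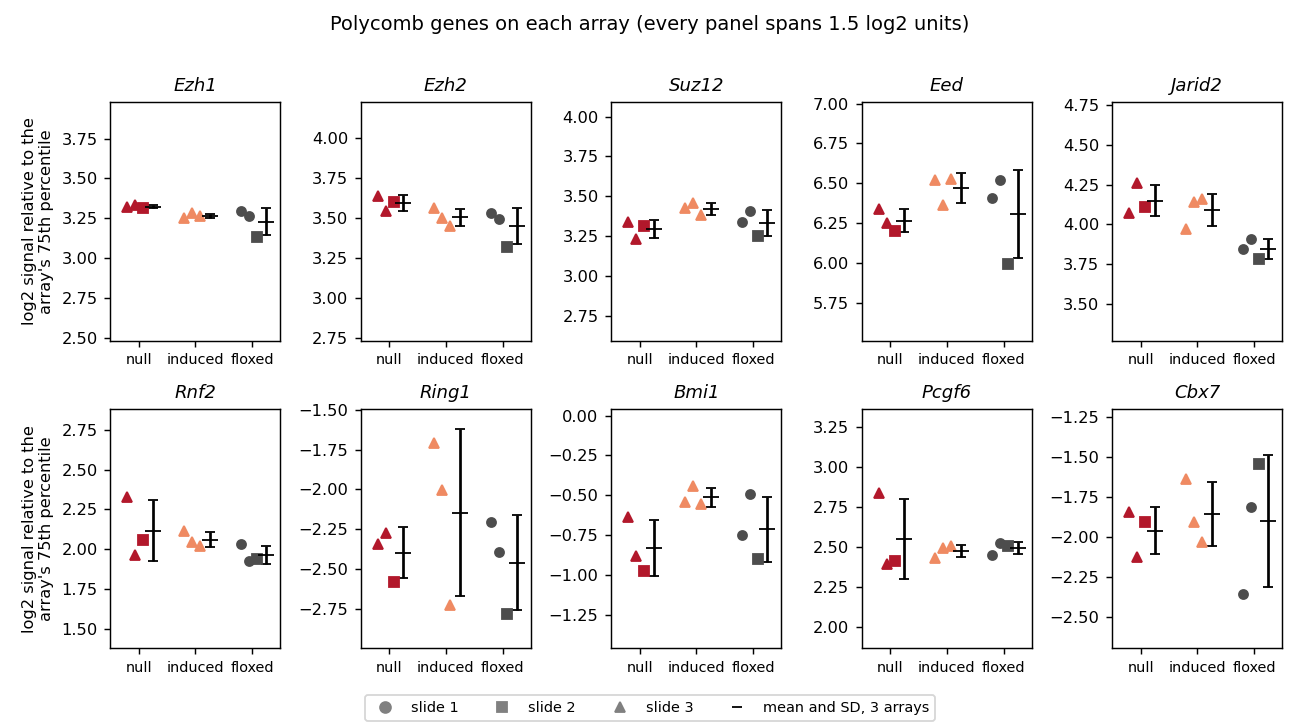
Log2 signal of the 10 Polycomb genes relative to each array's 75th percentile, 1 point per array for null, induced and floxed cells, with the slide as the marker shape and the mean and SD of 3 arrays in black. Jarid2 is higher on all null and induced arrays than on all floxed arrays, and no other gene separates the floxed arrays from all others in this way.

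The group means of Ezh2 and Ezh1, the catalytic subunits of PRC2, lay at most 0.14 apart on the log2 scale by the probe used for each gene. Ezh2, the main H3K27 methyltransferase of dividing cells, was measured at 3.64, 3.54 and 3.60 on the null arrays, 3.56, 3.50 and 3.45 on the induced arrays, and 3.54, 3.50 and 3.32 on the floxed arrays. Every null array lay above every floxed array, although the lowest null and the highest floxed value are equal to 2 decimals, and the induced arrays overlapped with both. The log2 change of null against floxed cells was 0.14 (95% interval -0.07 to 0.35, adjusted p = 0.379 in the limma fit), and that of induced against floxed cells 0.05 (-0.16 to 0.26). Ezh1, the second methyltransferase of the complex, stood at 3.32, 3.33 and 3.32 on null arrays, 3.25, 3.28 and 3.26 on induced arrays, and 3.29, 3.26 and 3.13 on floxed arrays. Its null arrays were above all others, by 0.09 over the floxed mean (interval -0.10 to 0.28, adjusted p = 0.532 in limma) and by 0.06 over the induced mean (interval -0.13 to 0.24, adjusted p = 0.718). The spread of Ezh1 within groups was an SD of 0.05, in the lowest 1.02% of all genes tested, so a shift as small as this already separated the arrays. The other Ezh1 probes that passed the filter changed by 0.06 and 0.17 in null against floxed cells, with overlapping groups.

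The core subunits Suz12 and Eed, which the methyltransferases need for activity and stability, were lowest in null cells by their means. Suz12 was at 3.34, 3.23 and 3.31 on null arrays, 3.43, 3.46 and 3.38 on induced arrays, and 3.34, 3.41 and 3.25 on floxed arrays. Null arrays were all below induced arrays (log2 change -0.13, interval -0.32 to 0.07, limma adjusted p = 0.401), and floxed arrays spanned both. Eed, the subunit that reads the methyl mark, was at 6.34, 6.25 and 6.20 on null arrays, 6.52, 6.37 and 6.53 on induced arrays, and 6.41, 6.52 and 6.0 on floxed arrays. Again the null arrays were all below the induced arrays, by a log2 change of -0.21 (interval -0.52 to 0.11, limma adjusted p = 0.392). The low value of 6.0 belongs to floxed array 3, and without that array the difference of null from floxed cells in Eed was -0.20, against -0.04 with it. Between the null and the floxed array that shared slide 2 the sign was the opposite. There the null array was 0.20 higher for Eed and 0.06 higher for Suz12.

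Jarid2, the accessory subunit, had the largest F of the members. Its probe lies on the plus strand of mm9 at chr13:45016247-45016306. It was measured at 4.07, 4.26 and 4.11 on null arrays, 3.97, 4.14 and 4.16 on induced arrays, and 3.85, 3.91 and 3.78 on floxed arrays. Null and induced arrays overlapped with each other, and all 6 lay above all 3 floxed arrays. Jarid2 averaged 4.15 ± 0.10 in null cells and 3.85 ± 0.06 in floxed cells (SD, n = 3 each), a log2 change of 0.30 or 1.23-fold (fold interval 1.06 to 1.43). The unadjusted p was 0.0132, and the adjusted p over all genes was 0.127 in the limma fit, so the difference did not pass the threshold of 0.05. In induced cells it averaged 4.09 ± 0.10, a log2 change of 0.24 or 1.18-fold against floxed cells (fold interval 1.02 to 1.38, unadjusted p 0.0338, limma adjusted p = 0.773). The 2 comparisons share the floxed arrays, so they are not independent of each other. On slide 2, where 1 null and 1 floxed array sat together, the Jarid2 difference was 0.33, and between null and induced arrays of slide 3 it was 0.07. Across the 19 other settings tried, the null against floxed change of Jarid2 stayed between 0.24 and 0.34, and its lowest adjusted p was 0.0858, without floxed array 3.

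Among the PRC1 ligases, Rnf2, the main H2A ubiquitin ligase of embryonic stem cells, was at 2.33, 1.96 and 2.06 on null arrays, 2.11, 2.05 and 2.02 on induced arrays, and 2.03, 1.93 and 1.94 on floxed arrays. The groups overlapped, with a log2 change of 0.15 in null against floxed cells (interval -0.10 to 0.40, limma adjusted p = 0.439) that was 0.04 without null array 1. Ring1, its paralog, was measured at -2.34, -2.27 and -2.58 on null arrays, -1.71, -2.0 and -2.73 on induced arrays, and -2.20, -2.39 and -2.78 on floxed arrays. It was the least precise member: its SD within groups was 0.36, larger than for 86.7% of all genes, and the highest and lowest induced arrays were further apart than any of the group means. Its log2 change in induced against floxed cells was 0.31 with an interval from -0.26 to 0.89 (limma adjusted p = 0.968).

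Bmi1, a Pcgf subunit of canonical PRC1, was read by 2 probes, on the plus strand of mm9 at chr2:18607531-18607590 and chr2:18607987-18608046. The first, brighter probe was at -0.64, -0.88 and -0.98 on null arrays, -0.54, -0.44 and -0.55 on induced arrays, and -0.75, -0.49 and -0.90 on floxed arrays. All null arrays lay below all induced arrays, and the floxed arrays overlapped with both groups. Bmi1 averaged -0.83 ± 0.17 in null cells and -0.51 ± 0.06 in induced cells (SD, n = 3 each), a log2 change of -0.32 or 0.802-fold (fold interval 0.652 to 0.985). With an unadjusted p of 0.0384 and an adjusted p of 0.185 in limma, this did not pass. On slide 3, which held 2 of the null arrays and all induced arrays, the difference was -0.25. The second Bmi1 probe, close to background (above it on 2 of 3 null arrays), was lower in null cells against both groups: it was at -3.13, -3.38 and -3.15 on null arrays, -2.86, -2.69 and -2.93 on induced arrays, and -2.79, -2.67 and -2.92 on floxed arrays. Its log2 change was -0.39 against induced cells (adjusted p = 0.114 over all probes in limma) and -0.43 against floxed cells (adjusted p = 0.103), where the first probe gave -0.12. The probes of Bmi1 gave one direction in null against induced cells and unequal sizes in null against floxed cells.

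Pcgf6, the Pcgf subunit of a variant PRC1 with E2f6 and Mga, was at 2.84, 2.39 and 2.41 on null arrays, 2.43, 2.49 and 2.5 on induced arrays, and 2.45, 2.53 and 2.5 on floxed arrays. Null array 1 was above every other array, and the other null arrays were below every floxed array. Its log2 change in null against floxed cells was 0.05 with all arrays (limma adjusted p = 0.822) and -0.09 without null array 1. Cbx7, the chromodomain subunit of canonical PRC1 in embryonic stem cells, was at -1.84, -2.13 and -1.91 on null arrays, -1.64, -1.91 and -2.03 on induced arrays, and -2.35, -1.81 and -1.54 on floxed arrays. The groups overlapped in every comparison, and the log2 changes were -0.06 in null against floxed cells and 0.04 in induced against floxed cells. The second Cbx7 probe was at -1.93, -2.21 and -2.05 on induced arrays and -1.91, -1.75 and -1.69 on floxed arrays, a log2 change of -0.28 without overlap (adjusted p = 0.885 over all probes in limma), while the first probe gave the opposite sign.

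**Figure D2:**
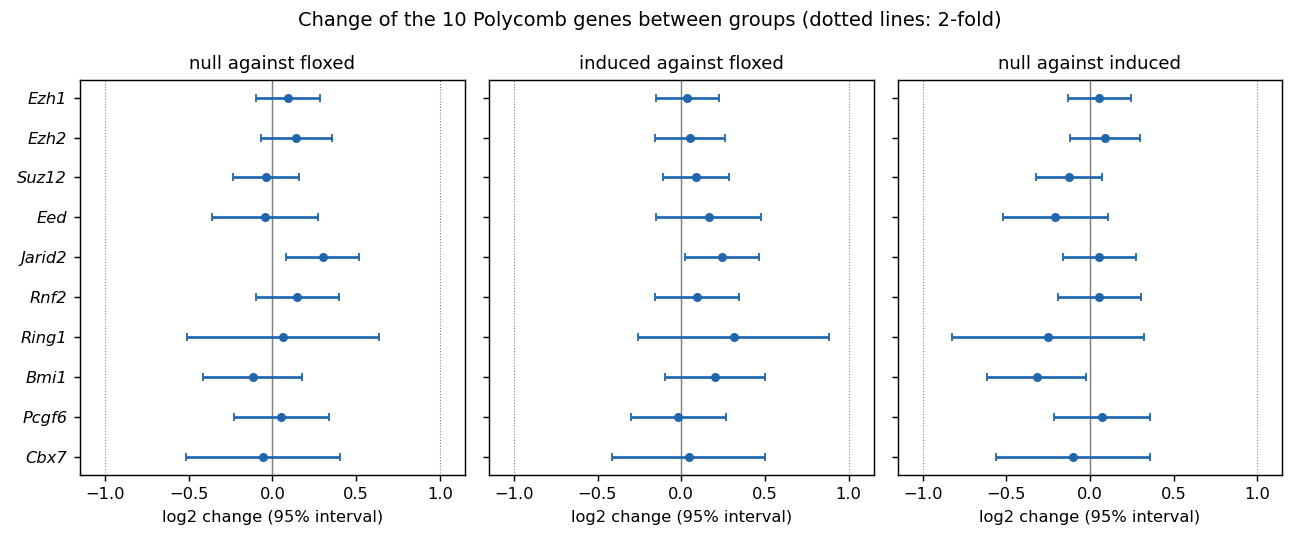
Log2 change of the 10 Polycomb genes in the 3 comparisons, with 95% intervals from the limma fit of 9 arrays and dotted lines at 2-fold. Every interval lies between the dotted lines, and those of Jarid2 against floxed cells (0.30 in null, 0.24 in induced cells) and of Bmi1 in null against induced cells (-0.32) leave out 0.

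In null against floxed cells, 0 of the 10 members passed at an adjusted p under 0.05 (limma, adjusted over 19913 genes), where 366 genes or 1.84% of those tested passed. At an unadjusted p under 0.05 the count was 1 of 10, Jarid2, against 22.9% of all genes. The arrays of the 2 groups did not overlap for 3 members, Ezh1, Ezh2 and Jarid2, all higher in null cells, where 23.6% of all genes did not overlap. In induced against floxed cells 0 of 10 passed, where 1 gene or 0.00502% of all passed, and at an unadjusted p under 0.05 the count was 1, Jarid2 again, against 5.9% of all genes. Jarid2 was also the 1 member without overlap in that comparison, where 12.8% of all genes did not overlap. In null against induced cells 0 of 10 passed, where 440 genes or 2.21% did, and at an unadjusted p under 0.05 the count was 1, Bmi1, against 23.8% of all genes. There 4 members did not overlap, Ezh1 above and Suz12, Eed and Bmi1 below, where 37.1% of all genes did not overlap. In the F-test over the 3 groups 0 members passed, where 1.63% of genes passed, and the largest values were those of Jarid2 (F = 5.38, adjusted p = 0.186) and Bmi1 (F = 3.01, adjusted p = 0.312).

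The sizes of the member changes were small in absolute terms. The median absolute log2 change of the members was 0.0772 in null against floxed cells, where the median over all genes was 0.187. It was 0.0913 in induced against floxed cells, where all genes had 0.105, and 0.0956 in null against induced cells, where all genes had 0.189. The 95% interval stayed within 1 log2 unit of 0, that is a 2-fold change, for 10 of 10 members in each comparison. It stayed within 0.5 for 7 members in null against floxed cells, 8 in induced against floxed cells and 6 in null against induced cells. An adjusted p above the threshold does not show that the members are the same in these groups. These intervals give sizes within the spread of the arrays in this fit alone, by the brightest probe of each gene. The fit takes the arrays as independent, whereas the random slide block gave a correlation of 0.51 within slides. Without induced array 3 the change of Ring1 in induced against floxed cells was 0.60. In null against floxed cells 6 members were higher and 4 lower, where 52.1% of all genes were higher. Between induced and floxed cells, 9 were higher and 1 lower in induced cells, where 50.8% of all genes were higher. These groups shared no slide, and floxed array 3 was below the mean of the other floxed arrays for 8 of the 10 members. Without that array the changes of Ezh1 and Ezh2 turned to -0.01 each. In null against induced cells 5 were higher and 5 lower, where 53.1% of all genes were higher.

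Without floxed array 3, the number of genes that passed in null against floxed cells was 4975 or 24.9% of those tested, yet the members that passed were still 0 of 10. Their lowest adjusted p was then 0.0858, for Jarid2. Between null and induced cells without that array, 18.1% of genes and 0 of 10 members passed, with the lowest adjusted p at 0.0940 for Bmi1. With slide as a fixed block, 16.2% of genes and 0 members passed in null against induced cells.

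**Figure D3:**
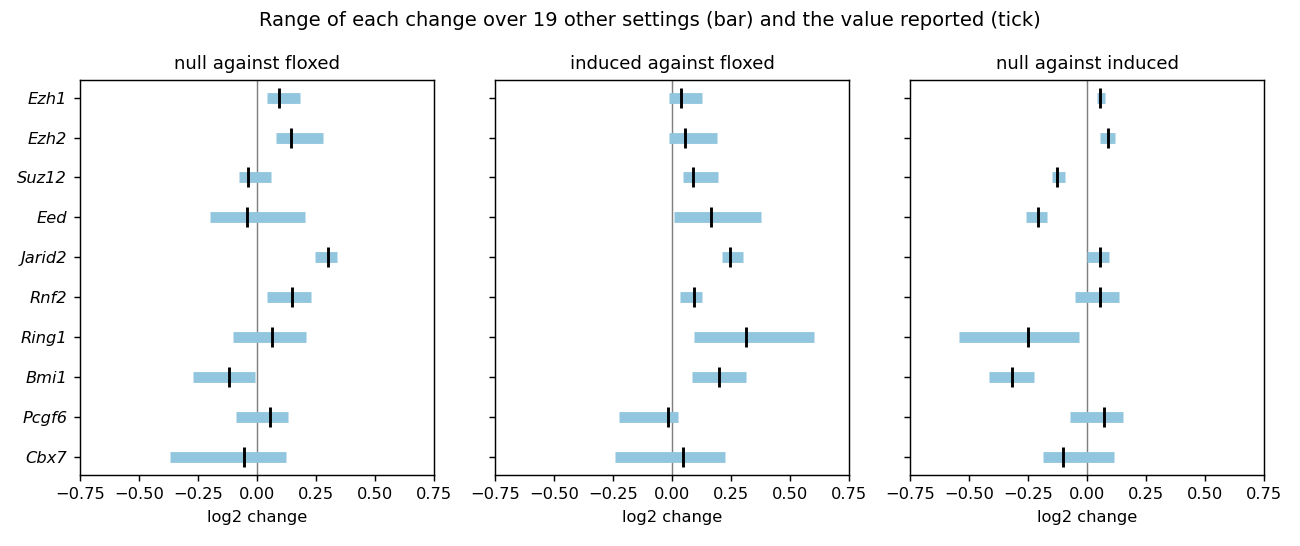
Lowest to highest log2 change of each Polycomb gene over 19 other settings (bars), with the reported value as a tick, for the 3 comparisons. Of the 30 bars, 17 stay on one side of 0. Those of Jarid2 against floxed cells and of Bmi1 in null against induced cells are among them, while those of Cbx7 and Eed in null against floxed cells cross it.

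The profiles most like those of Jarid2 and Bmi1 were sought among 12962 genes with an official symbol, by the root mean square difference of mean-centred log2 levels over the 9 arrays. For Jarid2 the nearest were Stat2, a transcription factor of interferon signalling, at 0.0390, Trim71, an RNA-binding protein of early embryonic cells, at 0.0603, and Itpr3, a calcium channel of the endoplasmic reticulum, at 0.0611. Stat2 averaged 1.64 in null cells, 1.56 in induced cells and 1.33 in floxed cells, with log2 changes of 0.31 and 0.24 against floxed cells. For Bmi1 the nearest were Mfsd11 at 0.0496, Zfp113 at 0.0612 and Adam9, a cell-surface protease, at 0.0615. The SD of the profile itself was 0.158 for Jarid2 and 0.196 for Bmi1.

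The wider Polycomb machinery was described through lists of genes outside the 10 members. Of 8 PRC2 partners, all measured, 0 passed in any comparison, at medians of -0.08 in null against floxed, 0.01 in induced against floxed and -0.09 in null against induced cells, where the medians over all genes were 0.01, 0.00 and 0.02. Epop, an accessory subunit that links PRC2 to Elongin, had the largest change in null against floxed cells, 0.38 (limma adjusted p = 0.0982), and Phf19, which binds methylated H3K36, the largest in null against induced cells, 0.37 (limma adjusted p = 0.170). Rbbp4, a histone chaperone that PRC2 shares with other complexes, differed by 0.20 in null against floxed and 0.25 in null against induced cells. In induced against floxed cells Epop was 0.29 higher and Phf19 0.29 lower, with adjusted p values of 0.715 and 0.894 in limma. Without floxed array 3, 2 of the 8 passed in null against floxed cells, 1 higher and 1 lower, where 24.9% of all genes passed.

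Of 27 PRC1 partners, 26 were measured (Cbx8 had no probe above background on all arrays of a group). In null against floxed cells 0 passed, with a median of 0.18 and 19 of 26 higher, where all genes had a median of 0.01 and 52.1% were higher. Bcorl1 differed by 0.63 (limma adjusted p = 0.0705). In induced against floxed cells 0 passed, with Phc3 at 0.24 and Yaf2 at -0.19 as the largest. In null against induced cells 1 rose, Bcorl1, a corepressor of a variant PRC1, by 0.72 (limma adjusted p = 0.0462), where 0.668% of all genes rose. Bcorl1 averaged -0.72 ± 0.17 in null cells, -1.44 ± 0.17 in induced cells and -1.35 ± 0.22 in floxed cells (SD, n = 3 each). The call of Bcorl1 held in 8 of 19 other settings, with limma adjusted p values from 0.00949 to 0.649, and was lost without floxed array 2 and without any single null or induced array. Without floxed array 3, 8 of the 26 partners passed in null against floxed cells, 7 higher and 1 lower, where 24.9% of all genes passed, and 7 in null against induced cells, 6 higher and 1 lower, where 18.1% passed.

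Among genes that act against Polycomb marks, 0 passed in the fit used for the main results (all 9 arrays, no slide block). Of 8 H2A deubiquitinase and H3K27 demethylase genes, 7 were measured and 0 passed in each comparison. The largest change in null against floxed cells was that of Kdm6b, an H3K27 demethylase, at 0.27 (limma adjusted p = 0.149), followed by Mysm1, an H2A deubiquitinase, at 0.23 (adjusted p = 0.238). Kdm6b differed by 0.27 and Bap1, another H2A deubiquitinase, by 0.16 in null against induced cells, while Kdm6a and Mysm1 led in induced against floxed cells at 0.16 and 0.14. Trithorax group genes oppose Polycomb, many of them through H3K4 methylation. Of 13 such genes 0 passed, although 12 of 13 were higher in null than in floxed cells (median 0.19) and 12 of 13 higher in null than in induced cells (median 0.20), where 52.1% and 53.1% of all genes were higher. Dpy30, a core subunit of the H3K4 methyltransferases, was the highest, at 0.49 against floxed cells (limma adjusted p = 0.104) and 0.40 against induced cells (adjusted p = 0.142). Setd1b, an H3K4 methyltransferase, differed by 0.33 in null against floxed cells and 0.21 in induced against floxed cells, and Men1, a subunit of related complexes, by 0.32 in null against induced and -0.19 in induced against floxed cells. Without floxed array 3, Kdm6b (limma adjusted p = 0.0496) was the 1 eraser that passed in null against floxed cells, and 2 trithorax genes did, with Dpy30 at an adjusted p of 0.00492, where 24.9% of all genes passed. Dpy30 was then also the 1 trithorax gene that passed in null against induced cells (adjusted p = 0.0268, 18.1% of all genes). With slide as a fixed block, 3 trithorax genes passed in null against induced cells, where 16.2% of all genes passed.

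The known targets of Polycomb in embryonic stem cells were mostly not measured: of 64 developmental regulators, 18 had a probe that passed the filter, 15 of them above background on every null array and 18 on every induced and every floxed array. The other 3, Cdx2, Hand1 and Gata4, passed the filter only through the floxed and induced arrays, so a lower level in null cells was favoured by the filter. Of the 15 above background on all 9 arrays, 3 fell and 0 rose in null against floxed cells, in a fit of such genes alone in which 1.29% of all genes fell. Whether they passed or not, 7 of the 18 were higher and 11 lower in null cells, where 52.1% of all genes were higher. The largest rise was 0.95, and it did not pass. Cdx2, a trophectoderm and caudal transcription factor, was not well above background on any null array and was at least 3.13-fold lower in null than in floxed cells (limma adjusted p = 0.00455). Its measured means were -5.47 in null, -2.45 in induced and -1.97 in floxed cells. Cdkn2b, a cell cycle inhibitor, fell by 0.84 (adjusted p = 0.00511), and Cdkn2a, the neighbouring inhibitor, by 0.65 (adjusted p = 0.0248), both in limma. Hand1, a trophoblast and mesoderm factor above background on 1 of 3 null arrays, had a measured mean of -4.10 in null and -2.68 in floxed cells (limma adjusted p = 0.0165), and the null mean rests on 1 array with a signal well above background.

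Against induced cells, 4 of the same 15 fell in null cells and 0 rose, where 1.52% of all genes in that fit fell. Among them were Cdkn2a, with a log2 change of -0.75, and Hoxa7, a homeobox gene, with -0.63 (limma adjusted p = 0.0147 and 0.0473 in the fit of all genes tested). Cdx2 was at least 2.23-fold lower in null than in induced cells (limma adjusted p = 0.0114), and Hand1 had a measured mean of -4.10 in null and -2.94 in induced cells (adjusted p = 0.0340). In induced against floxed cells 0 of 18 passed, and the largest differences were those of Cdx2 at -0.49 (limma adjusted p = 0.968) and Msx2, a homeobox gene, at -0.36 (adjusted p = 0.925). In the main fit 8 of the 18 targets were higher and 10 lower in null than in induced cells, where 53.1% of all genes were higher. Without floxed array 3, 11 of the 18 targets passed in null against floxed cells, of which 6 fell and 5 rose, where 24.9% of all genes passed. In null against induced cells 13 then passed, of which 8 fell and 5 rose, where 18.1% of all genes passed. With slide as a fixed block 8 fell and 5 rose in that comparison as well, where 16.2% of all genes passed. The call of Cdx2 in null against floxed cells held in 18 of the 18 other settings that could test it. That of Cdkn2b held in 18 of 19, the exception being slide as a fixed block. Cdx2 and Hand1 could not be tested under the filter for signal above background on every array, because some null arrays lacked such signal. The filter of the main fit favoured a lower level of both genes in null cells, so repeated calls under it are not independent of that filter. The call of Hand1 held in 11 of 18 (limma adjusted p from 0.00487 to 0.124) and was lost without floxed array 2 or null array 2. The call of Cdkn2a held in 6 of 19 (adjusted p from 0.00667 to 0.288 in limma) and was lost on leaving out any single array but floxed array 3 or induced array 1. Against induced cells the calls held in 12 of 18 settings for Cdx2, 8 of 18 for Hand1, 14 of 19 for Cdkn2a and 7 of 19 for Hoxa7, and each of them was lost without induced array 1 and without induced array 2.

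Markers of other cell types moved in the same groups as these targets. Of 13 fibroblast markers 7 were measured, 5 of them above background on all 9 arrays, and of 8 trophectoderm markers 6 were measured, 3 of them on all 9. Of these 5 fibroblast markers 4 fell in null against floxed cells (Acta2, Col1a1, Col1a2 and Tagln), and of the 3 trophectoderm markers 2 fell (Krt8 and Krt18). In the same fit of genes above background on all 9 arrays, 1.29% of all genes fell. The fibroblast marker that did not pass, Thy1, averaged 1.4 ± 0.16 in null cells and 0.04 ± 0.97 in floxed cells (SD, n = 3 each, limma adjusted p = 0.103), with no overlap. Cdx2 and Hand1 stand on the trophectoderm list as well. The mean log2 level of the 7 fibroblast markers lay between -1.69 and -1.48 on null arrays, -0.30 and -0.09 on induced arrays, and 0.01 and 0.25 on floxed arrays. For the 6 trophectoderm markers it lay between -0.62 and -0.37 on null arrays, 0.74 and 1.13 on induced arrays, and 1.13 and 1.35 on floxed arrays. These means include Col3a1 and Twist2 among the fibroblast markers, and Cdx2, Hand1 and Gata3 among the trophectoderm markers. Those genes passed the filter only through the floxed and induced arrays, so lower means in null cells were favoured by the filter. The fibroblast markers Col3a1 and Twist2 were above background on 0 null arrays and Thy1, Acta2, Col1a1, Col1a2 and Tagln on all 3. Of the 4 neuroectoderm markers measured, Nes rose in null against floxed cells, by 0.59 (limma adjusted p = 0.0350), and the others did not pass. In bulk RNA fewer cells of a type and less RNA per cell cannot be told apart. The part of such cells in the lower levels of those targets that fell was not tested.

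**Figure D4:**
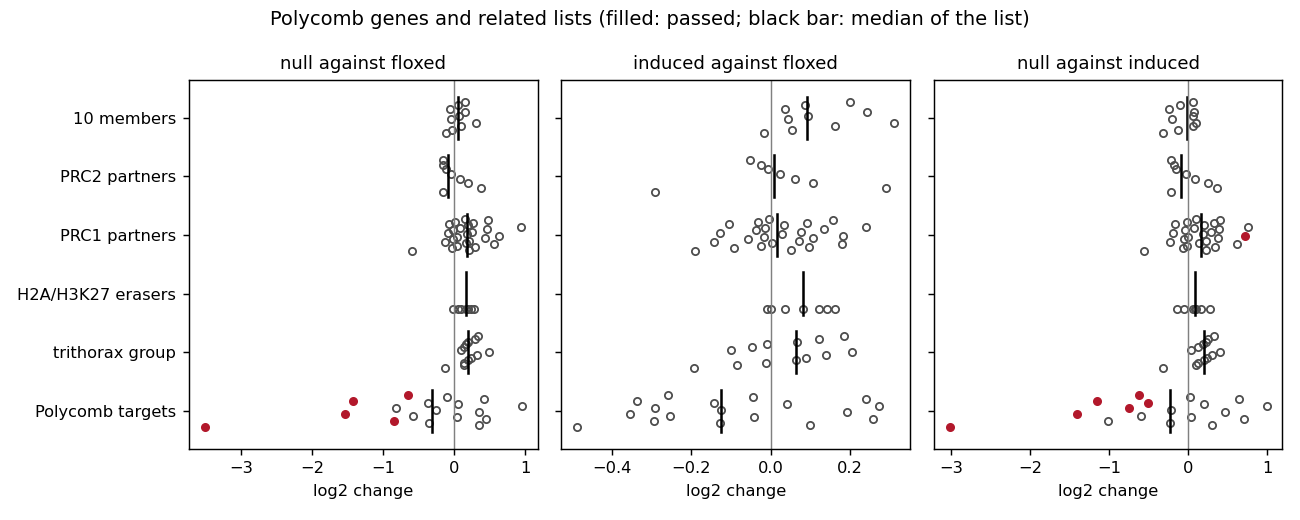
Log2 change of each measured gene of the 10 members and of the 5 related lists in the 3 comparisons, filled where it passed (limma, adjusted p under 0.05), with the median of the list as a black bar and an axis of its own in each panel. The members sit close to 0 in each comparison, and the filled points are targets lower in null cells and Bcorl1 higher in null than in induced cells.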

How the data were processed

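Total RNA was labelled with Cy3 (50 ng per sample) and hybridised to Agilent 1-colour arrays, 1 per sample. Per the file headers, Agilent Feature Extraction 10.7.3.1 wrote the deposited intensity of each spot (linear, background-subtracted, detrended within the array, low spots replaced by a surrogate, not scaled between arrays). Flags of spot quality, deposited beside them, are other values of the same files. The deposited series matrix holds the mean signal, an intensity within 1% of the scanner files for 100% of values, and 0 of its columns were left over.

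Control and outlier spots were left out, and spots of a probe averaged. Values are log2 processed signal, less the 75th percentile of the array on that scale. Probes stayed in the tests if at least 1 group had them well above background on its 3 arrays (27536 probes), and each gene took its brightest probe (19913 genes, the unit of adjustment). Where RefSeq accessions of the GRCm38.p6 table matched, they gave the symbol (27235 probes), otherwise the file's name was kept. Probe positions in the files are mm9, and exons and introns were not analysed here. One limma 3.58.1 fit (R 4.3.3) of 3 group means gave moderated tests, two-sided, adjusted after Benjamini-Hochberg. "At least" folds set each array of the lower group at no less than the lowest signal well above background. The steps were tested on simulated data.

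The members and gene lists were chosen with earlier results of these data known. The text names the 10 members, up to 5 passing genes of each list and direction in a comparison, otherwise the 2 largest changes, and the 3 genes most like each of the 2 members with the largest F; some genes that this rule names are not reported here. Alternatives were other background corrections and scalings, other filters on dim probes, the mean of a gene's probes, slide or replicate number as a block, fits of 2 groups and leaving out each array.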

Additional observations from a re-analysis of the deposited data

How the results depend on the processing

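The count of members that passed was 0 in each comparison and in the F-test under each of the 19 other settings that could be run. Of 570 member changes recomputed, 0 passed and 33 changed sign, all of them values that had not passed, and 17 of the 30 changes kept their sign throughout. Counts over all genes and lists moved. In null against floxed cells, 366 genes passed, and 560 passed with normexp, 73 with no filter on dim probes, 50 with slide as a fixed block, 101 with slide as a random block, 161 with the replicate block, 81 with only the 2 groups compared, and 72 to 4975 with 1 array left out (4975 without floxed array 3, 72 without null array 2, and each of the 9 arrays moved it by more than 1.5 times). In induced against floxed cells, 1 passed, and 170 with slide as a fixed block, 0 to 159 with 1 array left out, and 0 with quantile, normexp, mean signal, no filter, a filter on all 9 arrays or a random slide block. Between null and induced cells, 440 passed, and 63 with no filter, 3228 with slide fixed, 1781 with slide random, 188 with the replicate block, 2771 with only 2 groups, and 61 to 3619 with 1 array left out (61 without induced array 2, and again each of the 9 moved it). The cause was not tested. The replicate block sets arrays of the same number together, and the main fit does not. Same-numbered arrays of different groups correlated between -0.106 and 0.0873 in their deviations from group means, and 3 of 9 arrays correlated best with their own number.

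Of the 18 Polycomb targets, 5 passed in null against floxed cells, and 3 with no filter, the filter on all 9 arrays or only 2 groups, 2 with slide fixed, and 3 to 11 with 1 array left out. In null against induced cells, 6 passed, and 2 with normexp or mean signal, 0 with no filter, 13 with slide fixed, 3 with the replicate block, 12 with only 2 groups, and 0 to 13 with 1 array left out (0 without induced array 1 or induced array 2). In induced against floxed cells 2 passed with slide fixed, against 0. Of PRC1 partners, 0 passed in null against floxed cells, and 1 with quantile, normexp, mean signal, the filter on all 9 arrays or the replicate block, and 0 to 8 with 1 array left out. Between null and induced cells 1 passed, and 0 with normexp, mean signal or no filter, 7 with slide fixed or only 2 groups, 4 with slide random, and 0 to 7 with 1 array left out. PRC2 partners that passed ranged from 0 to 2 in null against floxed and 0 to 1 in null against induced cells with 1 array left out, with 1 under slide fixed in the second. Trithorax genes ranged from 0 to 2 and 0 to 1, with 3 under slide fixed and 1 with only 2 groups in null against induced cells. H2A deubiquitinase and H3K27 demethylase genes ranged from 0 to 1 in null against floxed cells. The highest counts with 1 array left out came without floxed array 3. The fixed slide block for comparisons with floxed cells rests on that array, and fits with an array left out assume that the remaining pair varies like the other groups.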
